A study of Homo sapiens with 10 samples.

Results

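The genes of the AP-1 transcription factors were examined for peaks of the retinoblastoma protein (Rb): FOS, FOSB, FOSL1, FOSL2, JUN, JUNB, JUND, ATF3 and BATF3, 9 of the 19962 protein-coding genes on chromosomes 1 to 22 and X. Members were taken by name. A peak was assigned to a gene's promoter where it overlapped by at least 1 bp the interval from 2000 bp upstream to 500 bp downstream of any start of that gene in GENCODE release 44, and peaks at no annotated promoter were kept where they lay within 100 kb of a member. Of the 9 genes, 8 had a promoter peak in at least 1 Rb library and FOSL1 had none. Outside promoters, 28 regions lay within 100 kb of a member.

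The series profiled Rb by CUT&RUN, in which an antibody guides a nuclease to cut out the DNA next to its target, in OVCAR-3 and Kuramochi, established cell lines of high-grade serous ovarian cancer with a WT genotype in the labels. Cells received INX-315, an inhibitor of the cyclin-dependent kinase CDK2, at 300 nM, or the vehicle DMSO, for 2 days. There were 4 groups of 2 Rb libraries (OVCAR-3 with DMSO, OVCAR-3 with INX-315, Kuramochi with DMSO and Kuramochi with INX-315), and 1 IgG2a library of DMSO cells in each line served as control. Each line is a single model, and the study describes the 2 replicates of each arm as biological replicates from an experiment done once, so p-values measure the spread within that experiment. The peak lists hold no expression values against which the identity of the lines could be checked.

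AP-1 is a dimer of basic leucine zipper proteins. JUN proteins pair with each other or with FOS proteins and bind the AP-1 site TGACTCA or TGAGTCA, while ATF3 and BATF3 join JUN proteins and also contact the related cyclic AMP response element (CRE), TGACGTCA. FOS, FOSB, JUN, JUNB and ATF3 are immediate-early genes, which growth factors and stress switch on through kinases and the serum response factor without new protein synthesis. Rb in its active, underphosphorylated form binds E2F factors at promoters of cell cycle genes, and CDK2 is among the kinases that phosphorylate it.

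The lists held 5221 to 8794 peaks in the DMSO libraries and 13031 to 17281 in the INX-315 libraries. The peak caller's values allow the fragments at each summit to be recovered as whole numbers, for 98.6% to 99.9% of peaks per Rb library. Summit height is given below as a multiple of the genome-wide mean of fragments per base in the same library (0.216 to 0.501), so a height of 20 is 20 times that mean. Read totals are not in the peak lists, so depth is known only through this mean. In these units the height at promoters was higher under INX-315 across the genome: over the 3678 genes with a promoter peak and a recovered height in all 8 libraries, the median log2 difference between INX-315 and DMSO was 1.64. Every height of a member below stands against this general shift. The IgG2a libraries listed 257 peaks in OVCAR-3 and 195 in Kuramochi, and 0 of them lay within 100 kb of a member.

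The DNA under the highest promoter summit of 6 members is printed to show what lay at the point of most fragments, since these summits often stood away from the gene's start. FOS and JUNB carry a site more than 1000 bp upstream of the start, FOSL2 has the greatest height in OVCAR-3, ATF3 has a site at internal starts, and FOSB and JUND hold motif matches. Each window is the 201 bases centred on the summit, read from hg38 on the strand of the gene and outside every annotated untranslated region. It comes from the library with the highest summit, and summits of other libraries often lay outside it. A summit fell inside the window in 2 libraries for FOS, 6 for JUNB, 3 for FOSL2, 4 for FOSB, 2 for JUND and 1 for ATF3. Capitals mark matches to the motifs named below. The windows are chr14:75277377-75277577 (plus strand) for FOS, chr19:12790010-12790210 (plus) for JUNB, within an intron of a HOOK2 transcript, chr2:28392427-28392627 (plus) for FOSL2, chr19:45467714-45467914 (plus) for FOSB, inside the ERCC1 gene body, chr19:18281811-18282011 (minus) for JUND and chr1:212608496-212608696 (plus) for ATF3.
FOS: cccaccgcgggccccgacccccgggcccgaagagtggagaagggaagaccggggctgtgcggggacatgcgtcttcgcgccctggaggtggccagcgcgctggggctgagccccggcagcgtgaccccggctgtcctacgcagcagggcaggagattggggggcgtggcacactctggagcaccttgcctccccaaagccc
JUNB: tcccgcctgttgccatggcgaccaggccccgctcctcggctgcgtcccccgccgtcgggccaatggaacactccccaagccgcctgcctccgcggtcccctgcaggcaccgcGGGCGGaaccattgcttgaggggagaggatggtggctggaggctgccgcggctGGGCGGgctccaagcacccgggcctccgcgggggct
FOSL2: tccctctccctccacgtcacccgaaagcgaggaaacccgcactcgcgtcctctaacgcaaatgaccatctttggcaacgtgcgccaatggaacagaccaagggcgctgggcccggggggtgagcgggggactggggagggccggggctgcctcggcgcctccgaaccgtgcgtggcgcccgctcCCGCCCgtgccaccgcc
FOSB: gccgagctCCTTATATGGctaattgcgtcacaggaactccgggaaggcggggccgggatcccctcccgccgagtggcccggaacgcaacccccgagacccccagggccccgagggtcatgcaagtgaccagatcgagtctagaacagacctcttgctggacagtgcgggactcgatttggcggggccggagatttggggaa
JUND: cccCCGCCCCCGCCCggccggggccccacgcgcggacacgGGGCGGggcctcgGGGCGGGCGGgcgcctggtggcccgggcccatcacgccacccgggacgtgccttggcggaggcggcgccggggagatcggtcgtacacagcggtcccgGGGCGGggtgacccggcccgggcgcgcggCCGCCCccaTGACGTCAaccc
ATF3: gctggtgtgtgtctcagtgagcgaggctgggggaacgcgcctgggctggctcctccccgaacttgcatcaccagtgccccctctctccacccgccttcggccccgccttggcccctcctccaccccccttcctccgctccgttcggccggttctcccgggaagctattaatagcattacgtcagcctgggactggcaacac

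In the FOSB window a CArG box, the string bound by the serum response factor, lay 87 bp upstream of the summit, at chr19:45467722-45467731. The JUND window held a CRE, TGACGTCA, at chr19:18281815-18281822, together with 7 partly overlapping GC boxes (GGGCGG, the site of Sp1). The JUNB window held 2 GC boxes and that of FOSL2 held 1. The FOS and ATF3 windows held none of the strings searched, nor did the corresponding windows of JUN and BATF3. The E2F strings TTTCCCGC, TTTCGCGC, TTTGCCGC and TTTGGCGC were found in 0 of the 8 members' windows and in 4.2% of the 13728 windows drawn the same way over all genes with a promoter peak. The AP-1 strings were found in 0 of 8 and in 1.1% of all windows, the CRE in 1 of 8 and 0.925%, the CArG box in 1 of 8 and 0.517%, TATAAA in 0 of 8 and 1.3%, and the GC box in 3 of 8 and 62%. Both strands were searched. A string under a summit is a description of the window and not a binding site.

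The windows of the 8 members were rich in G and C, from 61.7% for JUN to 84.1% for JUND, where the median over all windows was 69.7% and the central 90% ran from 54.2% to 81.1%. JUND alone of the 8 lay above that range. In RefSeq promoters (GRCh38.p14, from 250 bases before to 50 after the start), 7 of the 9 genes were matched by symbol. TATAAA was present in those of FOS, FOSB and JUNB and in 1 of the 2 entries of ATF3, beside 11.5% of all 35116 promoters. FOSL2 held an AP-1 string there, as did 4.95% of all promoters, and JUND held the same CRE, as did 1.85%.

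The question the design asks of each gene is whether Rb peaks at its promoter differ between INX-315 and DMSO. In OVCAR-3 with DMSO, 6 of the 9 genes had a promoter peak in both replicates (FOS, FOSL2, JUN, JUNB, JUND and ATF3), where 26.8% of all protein-coding genes did. Under INX-315 there were 7, with FOSB added, where 55.5% of all genes did. In Kuramochi, 4 genes had a peak in both DMSO replicates (FOS, FOSL2, JUN and JUNB; all genes 24.8%) and 8 under INX-315, every member except FOSL1 (all genes 53.2%). FOS, FOSL2, JUN and JUNB had a promoter peak in all 8 libraries, 4 of 9 beside 18.8% of all genes, and 1 of 9 had none in any library beside 31.2%. With the promoter narrowed to 1000 bp upstream, the count in OVCAR-3 with DMSO fell to 3 (FOSL2, JUND and ATF3), since FOS, JUN and JUNB each had at least 1 replicate whose peak lay further upstream.

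A promoter was called gained where a line had a peak in both INX-315 libraries and in neither DMSO library. FOSB was gained in OVCAR-3, 1 of 9 beside 16.2% of all genes. ATF3 and BATF3 were gained in Kuramochi, 2 of 9 beside 14% of all genes. With peaks limited to a q-value of 0.001, BATF3 was no longer among those gained in Kuramochi (FOSB, JUND and ATF3), and JUN joined FOSB in OVCAR-3. No member was lost in either line, beside 0.00501% of all genes in OVCAR-3 and 0.015% in Kuramochi. These counts changed with the number of peaks taken. With the same number of top-ranked peaks taken from each library of a line, 0 members were gained in either line, JUND was lost in OVCAR-3 and FOS in Kuramochi.

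**Figure D1:**
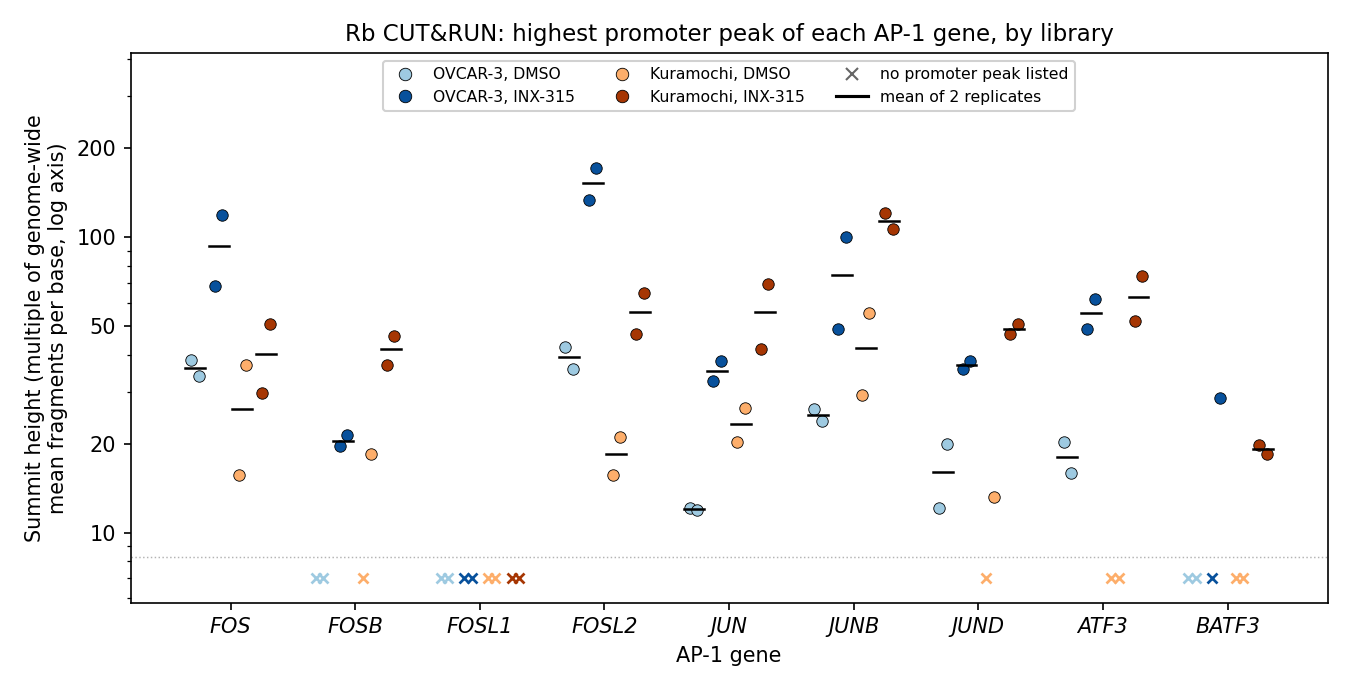
Height of the highest promoter peak of each AP-1 gene in every Rb library, on a log axis, as a multiple of the genome-wide mean of fragments per base; circles are libraries, bars are means of 2 replicates and crosses mark libraries with no promoter peak listed. FOS, FOSL2, JUN and JUNB have a circle in all 8 libraries and FOSL1 has none; the INX-315 circles lie above the DMSO ones except for FOS in Kuramochi, and after division by the library median the difference averaged over both lines, with unlisted peaks at the floor, turns for FOS, FOSB, JUN, JUNB, JUND and BATF3.

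FOS encodes the founding partner of JUN and is the gene most used as a mark of immediate-early induction. In OVCAR-3 its summit heights were 38.4 and 33.9 with DMSO and 68.5 and 119 with INX-315, so both treated libraries stood above both controls. In Kuramochi they were 15.7 and 36.9 with DMSO and 29.6 and 50.9 with INX-315, and the groups overlapped. The log2 difference averaged over the lines was 1.01, with an SD between replicates of 0.59, and the exact two-sided permutation of treatment labels within each line gave p = 0.111. The smallest p that the 36 arrangements allow is 0.0556, so no member can pass 0.05 in this design. The 8 members with a peak were each tested, and their p-values are unadjusted. Among the genes with a peak in all 8 libraries, the difference of FOS stood at the 5.36th percentile. Among the 13522 genes with a promoter peak in any library and recovered heights, it stood at the 25.3rd percentile. With a promoter of 1000 bp upstream the log2 difference of FOS was 1.94 (p = 0.0556, exact permutation) and the groups did not overlap in either line. Only DMSO libraries lost their FOS peak at that width: OVCAR-3 replicate 1, whose peak ends at -1330, and Kuramochi replicate 2, at -1345. The wider INX-315 peaks kept the heights of their upstream summits, so this change does not describe signal nearer the start.

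The peaks of FOS did not sit at its start. In all 4 libraries of OVCAR-3 the summit lay between positions -1691 and -1351 relative to the canonical start at chr14:75278828. In Kuramochi the sites differed between the DMSO replicates, at -628 in replicate 1 and -1791 in replicate 2, while both INX-315 libraries had peaks at both places, at -1818 and -1691 and at -546 and -554. The start itself was covered by a FOS peak in only 1 of the 8 libraries, OVCAR-3 with INX-315 replicate 2.

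FOSB encodes a close relative of FOS. It had no promoter peak with DMSO in OVCAR-3, and heights of 19.6 and 21.4 with INX-315. In Kuramochi, DMSO replicate 2 alone listed a peak, at 18.4, and the INX-315 libraries reached 37.0 and 46.3. These peaks lay just before the start in both lines, between -450 and -163, and the start was covered in 0 libraries. In 3 INX-315 libraries further peaks stood within the gene, with summits between +1108 and +1776. A library without a promoter peak was given the lowest height of its promoter peaks (9.51 to 13.9 over the libraries), which makes the log2 difference of FOSB 1.28 (p = 0.0556, exact permutation). Values with libraries at the floor rest on it: with a floor of 1, the genome-wide mean, the difference was 3.81 for FOSB.

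FOSL1, which encodes Fra-1, a FOS protein without the transactivation domain of FOS, had no promoter peak in any of the 8 Rb libraries. Its nearest region was intergenic, at chr11:65911687-65912218, with its summit at -11514 from the canonical start of FOSL1 and 6458 bp from the nearest protein-coding start, that of C11orf68. That region was present in 7 of 8 libraries. Its heights were 18.2 and 17.9 with DMSO in OVCAR-3 and 21.4 in the 1 INX-315 library that listed it. In Kuramochi they were 20.2 and 29.0 with DMSO and 39.5 and 46.3 with INX-315.

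FOSL2 encodes Fra-2 and was the highest of the 9 genes in all 4 libraries of OVCAR-3, while JUNB was the highest in all 4 of Kuramochi. In OVCAR-3 the heights were 42.4 and 35.9 with DMSO and 134 and 171 with INX-315, a ratio of group means of 3.89. In Kuramochi they were 15.7 and 21.1 with DMSO and 46.9 and 64.8 with INX-315, a ratio of 3.04. The groups did not overlap in either line, and the log2 difference was 1.78, with an SD between replicates of 0.27 (p = 0.0556, exact permutation). Under INX-315 the OVCAR-3 peaks were 3587 and 3555 bp wide and ran across the start, whereas Kuramochi listed separate peaks around -2137 to -1947 and around the start.

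JUN encodes c-Jun, the founding member of its family, and shares its promoter peaks with the long non-coding RNA LINC01135. In OVCAR-3 its heights were 12.1 and 12.0 with DMSO, near the lowest that were listed, and 32.6 and 38.0 with INX-315. In Kuramochi they were 20.2 and 26.3 with DMSO and 42.0 and 69.5 with INX-315. The groups did not overlap in either line, and the log2 difference was 1.39, with an SD of 0.30 (p = 0.0556, exact permutation). The 12.1 and 12.0 of OVCAR-3 each rest on 6 fragments, at different places: -299 in replicate 1 and -1549 in replicate 2. Under INX-315 a peak covered the start in all 4 libraries, beside 0 of 4 with DMSO.

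JUNB, a JUN protein that is a weaker activator than c-Jun at many sites, had its main peak upstream in every library. The heights in OVCAR-3 were 26.3 and 23.9 with DMSO and 48.9 and 99.9 with INX-315. In Kuramochi they were 29.2 and 55.3 with DMSO and 121 and 107 with INX-315. The groups did not overlap in either line, and the log2 difference was 1.49 with an SD of 0.49 (p = 0.0556, exact permutation). With a promoter of 1000 bp upstream it was 1.24 (p = 0.222, exact permutation), and the non-overlap was lost in both lines. At that width the upstream peak dropped out in OVCAR-3 with DMSO and with INX-315 replicate 1. In Kuramochi it dropped out with INX-315 replicate 2, where it ends at -1059. The other upstream peaks reach nearer the start and kept the heights of their upstream summits. This change therefore does not describe signal nearer the start. In 7 of the 8 libraries the highest summit stood between -1488 and -1300, inside the window printed for JUNB in 6 of them, and in Kuramochi with DMSO replicate 2 it stood at -2542 within a peak that spans the same site. A separate peak over the start itself was listed in 3 libraries, all with INX-315, at heights of 21.4 in OVCAR-3 and 14.8 and 32.4 in Kuramochi.

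JUND, which unlike the other JUN genes is transcribed in most resting cells, had heights in OVCAR-3 of 12.1 and 19.9 with DMSO and 35.9 and 38.0 with INX-315. In Kuramochi, DMSO replicate 2 alone listed a peak, at 13.2, and the INX-315 libraries reached 46.9 and 50.9. That DMSO peak stood inside the gene, at +883 from the canonical start at chr19:18281622, while the main peaks of the other 6 libraries with a JUND peak lay between -472 and -289. The log2 difference, with 1 library at its floor, was 1.63 (SD 0.27, p = 0.0556, exact permutation), and 2.50 with a floor of 1. The promoter peaks also overlap the promoter interval of MIR3188, a microRNA gene next to JUND.

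ATF3 encodes a stress-induced partner of JUN proteins that often represses. In OVCAR-3 its heights were 20.2 and 15.95 with DMSO and 48.9 and 61.8 with INX-315. In Kuramochi no promoter peak was listed with DMSO, and the INX-315 libraries reached 51.9 and 74.1. The log2 difference, with 2 libraries at the floor, was 2.06 (SD 0.25, p = 0.0556, exact permutation), at the 86.3rd percentile of the 13522 genes with a promoter peak in any library and recovered heights. It was the greatest of the 8 members under this floor only, since with a floor of 1 it was 3.78, below the 3.81 of FOSB. These summits lay around the internal starts at chr1:212608670, chr1:212608761 and chr1:212608915. The distal start at chr1:212565334 carried no ATF3 promoter peak in any library. A separate peak was listed in 3 of the INX-315 libraries at -1709 to -1671, with heights of 32.6 in OVCAR-3 and 24.7 and 41.7 in Kuramochi.

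BATF3, which pairs with JUN proteins and is best known from dendritic cells, had a promoter peak in the fewest libraries of the 8, 3 of 8. It had no peak with DMSO in either line. Heights with INX-315 were 28.5 in replicate 2 of OVCAR-3 and 19.8 and 18.5 in Kuramochi. The last of these rests on 4 fragments, and its 95% exact Poisson interval, which covers counting error only, runs from 5.05 to 47.4. The log2 difference of 0.88 (p = 0.0556, exact permutation) has 5 of 8 libraries at the floor. With a floor of 1 it was 3.34 (p = 0.167, exact permutation).

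Counting members whose INX-315 heights both lay above both DMSO heights, with an unlisted peak taken as below any listed one, gave 7 of the 8 with a promoter peak in OVCAR-3, all but BATF3, beside 83.8% of all genes with a promoter peak in the line. Kuramochi also gave 7, all but FOS, beside 83.2%. In both lines at once the count was 6 (FOSB, FOSL2, JUN, JUNB, JUND and ATF3) beside 68.1%. These shares are near those of all genes. The median log2 difference of the 8 members was 1.44, with a range of 0.88 to 2.06, beside 1.50 over the 13522 genes. The caller's fold enrichment over local background gave the same counts of 7, 7 and 6. Dividing heights by the library median, as described next, changed them to 1 (FOSB), 3 (JUND, ATF3 and BATF3) and 0. Of these, FOSB in OVCAR-3 and ATF3 and BATF3 in Kuramochi have no listed DMSO peak, so this way of counting puts them above under any scaling. With unlisted peaks at the floor in place of below any height, the counts on that scale were 0, 2 (JUND and ATF3) and 0.

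**Figure D2:**
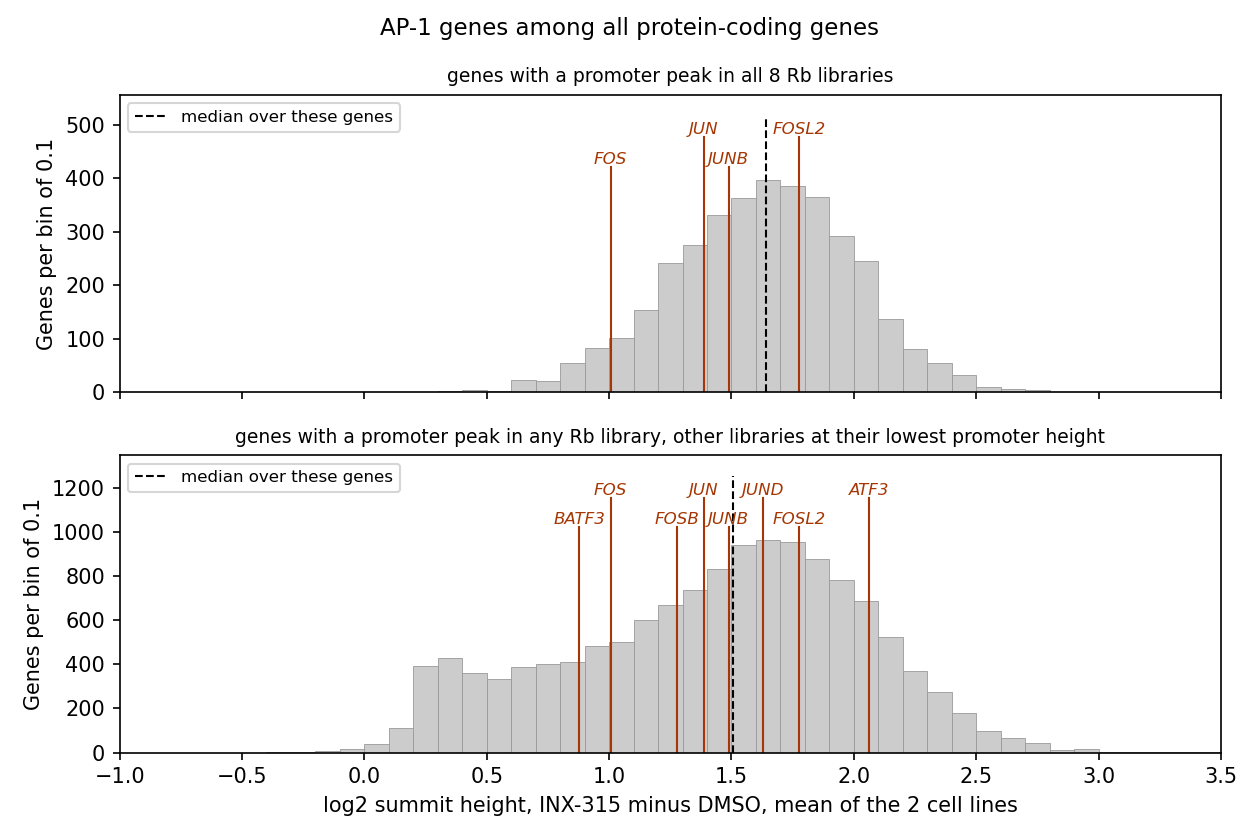
Histograms of the log2 difference in promoter summit height, INX-315 minus DMSO, averaged over the 2 lines, for all protein-coding genes with a peak in all 8 libraries (top) and in any library (bottom), with lines for the AP-1 genes and a dashed line at the median. All 8 AP-1 genes shown lie above 0 in multiples of the genome-wide mean, while against the medians of 1.64 and 1.50 FOS and BATF3 lie on the low side and ATF3 on the high side.

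To set the members against the general shift, each height was divided by the library's median over the 3678 genes with a peak and a height in all 8 libraries. On this scale the log2 difference was -0.67 for FOS (p = 0.0556, exact permutation), -0.29 for JUN (p = 0.222) and -0.19 for JUNB (p = 0.444), all turned from the scale above, and 0.10 for FOSL2 (p = 0.5). FOS went from 1.36 and 1.00 times the library median with DMSO to 0.75 and 0.88 with INX-315 in OVCAR-3. In Kuramochi it went from 0.50 and 0.78 to 0.29 and 0.42. FOS was thus below DMSO in both lines on this scale, 1 of the 4 members with a peak in all libraries, beside 13.8% of all such genes. None of the 4 was above DMSO in both lines, beside 9.46%. For members with libraries at the floor the values were -0.40 for FOSB, -0.05 for JUND, 0.38 for ATF3 and -0.80 for BATF3. These values rest on the floor, since a peak too shallow to be listed has no known height. BATF3 in both lines and FOSB in OVCAR-3 have no listed DMSO peak.

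Between the lines, FOSL2 was higher in OVCAR-3 than in Kuramochi with both treatments, with no overlap of replicates, 1 of the 4 genes with a peak in all libraries beside 9.6% of all such genes. JUN and JUNB were higher in Kuramochi with both treatments, 2 of 4 beside 19.8%. None of these 3 orders held with both treatments in the caller's fold enrichment. That of FOSL2 with DMSO was 10.4 and 6.19 in OVCAR-3 and 5.54 and 6.26 in Kuramochi. With INX-315 the fold enrichment of JUN was 6.89 and 9.18 in OVCAR-3 against 7.15 and 11.9 in Kuramochi. That of JUNB was 9.79 and 25.9 against 33.2 and 18.9. The local background under the highest FOSL2 peak was 1.32 to 4.48 times the genome-wide mean in OVCAR-3 and 1.00 to 1.25 times in Kuramochi, and its part in the difference was not tested.

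**Figure D3:**
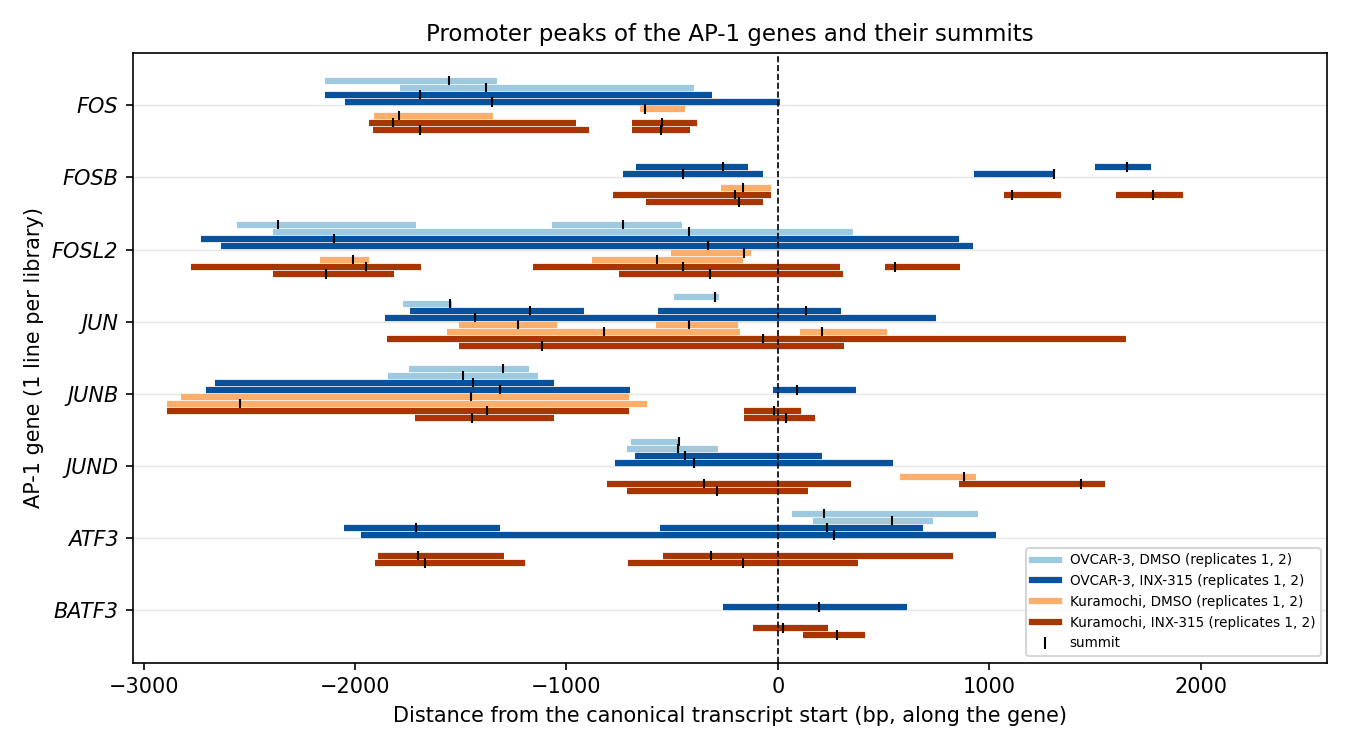
Promoter peaks (coloured bars, 1 row per library) and their summits (black ticks) along the 8 AP-1 genes with a promoter peak, in bp from the canonical transcript start at 0. FOS and JUNB peaks lie mostly upstream of the start, where the highest JUNB summits of 7 of the 8 libraries stand at -1488 to -1300. The BATF3 peaks and the highest ATF3 summits lie around the start, and a separate ATF3 peak stands upstream in 3 INX-315 libraries.

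The start of a member was seldom under its peak with DMSO. Of the members with a promoter peak, the peaks covered the canonical start in 0 of 6 and 1 of 6 genes in the DMSO libraries of OVCAR-3 and in 0 of 4 and 0 of 6 in those of Kuramochi. Over all genes the share covering the start was 59.1% to 66.6% in the DMSO libraries. With INX-315 the members' counts were 4 of 7 and 7 of 8 in OVCAR-3 and 6 of 8 and 5 of 8 in Kuramochi, beside 76.4% to 84.6% of all genes. Each library's highest member summits stood more than 500 bp upstream in 2 to 4 members, beside 11.2% to 14.2% of all genes. The median length under promoter peaks of a member was 615 to 755 bp with DMSO and 1147 to 2228 bp with INX-315, and 556 to 704 bp and 823 to 1072 bp over all genes.

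Regions outside promoters were merged over the 4 libraries of a line where peaks overlapped. Of 20 regions near the 9 genes in OVCAR-3, 2 were present in both DMSO replicates (4.96% of all regions outside promoters), 7 in both INX-315 replicates (23.2%) and 4 gained (13.9%). Of 20 in Kuramochi, 4 were present in both DMSO replicates (5.1%), 13 in both INX-315 replicates (20.9%) and 5 gained (10.5%). The number lost was 0 in either line, beside 0.567% of all regions in OVCAR-3 and 0.323% in Kuramochi. Many of these regions lie nearer to another protein-coding start than to that of the member, so closeness assigns them to no gene.

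The region at chr1:58816028-58816854, in an exon of LINC01135 and at -32366 from the start of JUN, was listed in all 4 INX-315 libraries and in none of the DMSO ones. Its heights were 26.1 and 59.4 in OVCAR-3 and 34.6 and 60.2 in Kuramochi, similar to the promoter of JUN itself. JUN is the nearest protein-coding gene. The intergenic region upstream of JUND, at chr19:18291559-18292493 and -10303 from its start, had heights of 29.4 and 42.8 with INX-315 in OVCAR-3 and none with DMSO. In Kuramochi it had 46.9 and 46.3 with INX-315 and 34.2 in 1 DMSO library.

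Around JUNB, a region at chr19:12782077-12783352 in an intron of HOOK2 was listed in 7 of 8 libraries, with heights of 22.8 and 23.8 with INX-315 in OVCAR-3 and 9.97 in the DMSO library that listed it. In Kuramochi the same region had 22.5 and 39.5 with DMSO and 71.6 and 125 with INX-315. The region over MAST1 exons at chr19:12840144-12841540 was absent with DMSO in OVCAR-3, where INX-315 gave 16.3 and 26.2. In Kuramochi it had 20.2 and 47.4 with DMSO and 93.8 and 125 with INX-315. The region over KLF1 at chr19:12885063-12885803 had 28.3 and 27.9 with DMSO and 58.7 and 78.5 with INX-315 in OVCAR-3. In Kuramochi it had 21.1 in DMSO replicate 2 alone and 32.1 and 41.7 with INX-315.

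FOSB had the most neighbouring regions, 8, in a stretch of chromosome 19 with several other genes. The region over PPP1R13L at chr19:45398091-45398763 was listed in all 4 Kuramochi libraries and in none of OVCAR-3, with heights of 42.7 and 47.4 with DMSO and 71.6 and 111 with INX-315. At chr19:45528250-45529631, over OPA3, the heights in OVCAR-3 were 45.7 and 64.2 with INX-315 and none was listed with DMSO. In Kuramochi they were 49.4 and 60.2 with INX-315 and 18.4 in DMSO replicate 2 alone. FOS, FOSL2, ATF3 and BATF3 had 1 or 2 regions each, every one of them listed in 1 library, and ATF3 and BATF3 share 1 of these.

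**Figure D4:**
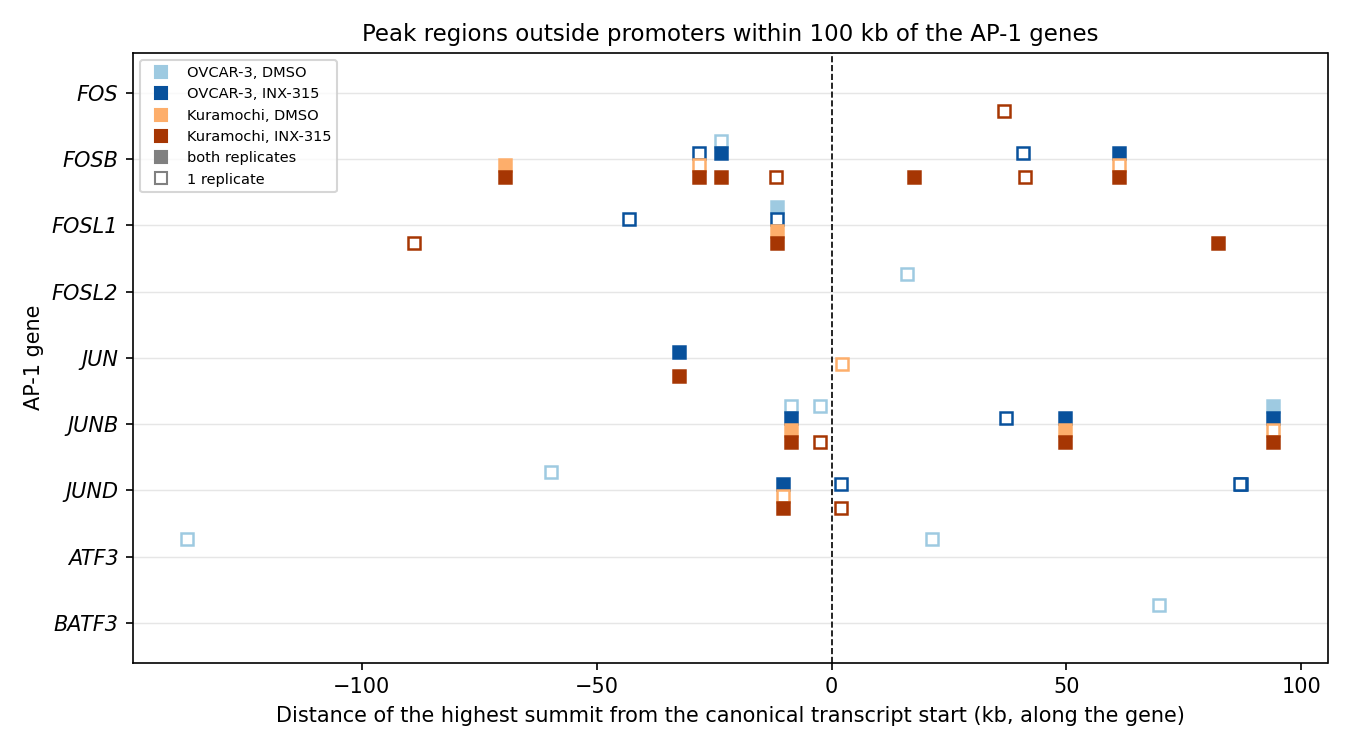
Peak regions outside promoters within 100 kb of each AP-1 gene, placed by the distance of the highest summit from the gene's canonical start in kb; filled squares are listed in both replicates of a group and open squares in 1. The region at -32366 bp of JUN is filled for INX-315 in both lines and absent for DMSO, and FOSB has the most regions.

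The genes that work with AP-1 were described in 4 further lists. Their counts stand beside the shares of all protein-coding genes, given for OVCAR-3 and then Kuramochi. A peak in both DMSO replicates was found in 26.8% and 24.8% of all genes, and in both INX-315 replicates in 55.5% and 53.2%. Gained were 16.2% and 14%, so a rise in a list's count is shared by genes in general. Of 13 related basic leucine zipper genes, 3 had a promoter peak in both DMSO replicates in each line, while with INX-315 OVCAR-3 had 9 and Kuramochi 10. Of these, MAFG and CREB5 were gained in both lines, JDP2 and MAFF in OVCAR-3, and BATF and BATF2 had no peak in any library. MAFG, a small partner of other zipper proteins, reached 45.7 and 92.7 in OVCAR-3 with INX-315, and in Kuramochi 49.4 and 50.9. The median log2 difference of the list was 1.55.

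Of 20 genes for upstream kinases and serum response factors, 7 had a promoter peak in both DMSO replicates in each line and 17 and 16 with INX-315. MAP2K4, a kinase that activates JNK, and RPS6KA3, a ribosomal S6 kinase, were gained in both lines, and MEF2D, a MADS-box transcription factor, was gained in OVCAR-3. The list's median log2 difference was 1.80. Of 22 other immediate-early genes, 5 and 4 had a peak in both DMSO replicates and 18 and 19 with INX-315, with 9 gained in OVCAR-3 and 5 in Kuramochi. Those with the highest mean INX-315 height over both lines among the gained were ZFP36, IER5, BTG2, KLF4 and DUSP1. ZFP36 and KLF4 were gained in Kuramochi only. ZFP36 reached 34.6 and 27.8 there, and its rank comes from 131 and 238 in OVCAR-3, where DMSO replicate 2 listed 49.9. EGR4, KLF6 and CCN2 had no peak in any library. Its median was 1.59.

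Of 19 AP-1 target genes, 2 had a promoter peak in both DMSO replicates in each line, and 8 and 6 did with INX-315, while 7 had none in any library. CCND1, the gene of cyclin D1, was gained in OVCAR-3, with heights of 52.2 and 64.2, as were VEGFA, PLAU and TGFB1, and LIF was gained in both lines, among 6 gained in OVCAR-3 and 2 in Kuramochi. The median log2 difference over the 12 target genes with a peak was 1.21. No gene of the 4 lists was lost in either line, beside 0.00501% of all genes in OVCAR-3 and 0.015% in Kuramochi.

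Finally, the genes whose 8 log2 heights lay closest to those of a member were found for the 4 members with a peak in all libraries. The closest to FOSL2 were PPP1R3F, IFNAR1 and GBA2, at root mean square distances of 0.12, 0.21 and 0.22 on the log2 scale. For JUNB they were PDXP, EIF4B and FBXL6 (0.17 to 0.21), for JUN they were GEMIN6, SRSF7 and RCE1 (0.26), and for FOS they were C9orf72, CHCT1 and USP32 (0.31 to 0.34). FOS thus had the least close neighbours of the 4 among the 3678 genes.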

How the data were processed

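Rb and IgG2a CUT&RUN was done in OVCAR-3 and Kuramochi cells, and the authors deposited 1 peak list per library. Per the submitters' notes and the study's methods, reads were aligned to hg38 with Bowtie2 2.3.4.1, and the authors called peaks per library with MACS2 2.2.7.1 (q 0.05, matched IgG as control, duplicates kept). Deposited values are the fold enrichment over local background (a ratio), −log10 p and −log10 q at the summit. Kept duplicates count towards summit heights, and peaks under the threshold are not listed.

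Fragments at each summit were recovered as the whole number that gives both the deposited fold and −log10 p (relative tolerance 3e-05), in Python 3.11.15 with numpy 2.4.6, scipy 1.17.1 and pandas 2.3.3, and the recovery was tested on simulated data. Height is fragments over the genome-wide mean per base of the library (0.216 to 0.501). A total of 208 genes with a promoter peak of unrecovered height were left out of height comparisons. Counting intervals cover counting error only. Groups came from the labels. Each member was tested by exact two-sided permutation within lines. The study's differential binding test needs reads and was not run.

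Members and lists were chosen with earlier results of these data known. All 9 members are named. Of each other list, up to 5 genes are named: those gained in either line by highest mean INX-315 height, then those without a promoter peak. BATF2, EGR4, KLF6 and CCN2 were named after their values were seen. Genes alike to a member share none of its peaks. Alternatives tried were a q-value of 0.001, equal numbers of top-ranked peaks, other promoter definitions, other scales and floors, leaving out each library, a replicate block, and other distances and overlaps for regions outside promoters.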

Additional observations from a re-analysis of the deposited data

How the results depend on the processing

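Counts of promoters and of regions depended most on how many peaks were taken. With equal numbers of top-ranked peaks per library of a line (6162 in OVCAR-3 and 5221 in Kuramochi), the members with a promoter peak in both INX-315 replicates were 4 in OVCAR-3 and 2 in Kuramochi, 0 were gained in either line, and 1 was lost in each (JUND and FOS). Non-overlapping heights above DMSO then held for 4 members in OVCAR-3, 2 in Kuramochi and 2 in both lines, and 1 member in each line lay below. Regions outside promoters present in both INX-315 replicates were then 1 and 3, with 0 gained and 1 lost in each line. A q-value of 0.001 gave 2 gained members in OVCAR-3 (FOSB and JUN) and ended the call of BATF3 in Kuramochi, where FOSB, JUND and ATF3 were gained. It also gave 1 region in both DMSO replicates of OVCAR-3, as did a distance of 50 kb, and Kuramochi had 3 at either setting. A promoter of 1000 bp upstream gave 3 members in both DMSO replicates of OVCAR-3. It moved FOS to 1.94 without overlap, with FOS peaks lost in DMSO libraries only. It moved JUNB to 1.24 with overlap, with upstream JUNB peaks lost in libraries of both treatments. Requiring the summit in the promoter, or 50% overlap for merging, kept every count within 1.5 times. Height divided by the library median turned the log2 difference of FOS (-0.67), FOSB (-0.40), JUN (-0.29), JUNB (-0.19), JUND (-0.053) and BATF3 (-0.80). Those of FOSB, JUND and BATF3 rest in part on libraries at the floor. On that scale, with unlisted peaks counted as below any height, 1 member in OVCAR-3 (FOSB) and 3 in Kuramochi (JUND, ATF3 and BATF3) lay above DMSO, 0 in both lines, and 2 (FOS and JUND) and 1 (FOS) lay below. With unlisted peaks at the floor, an alternative chosen after seeing the data, 0 in OVCAR-3, 2 in Kuramochi (JUND and ATF3) and 0 in both lines lay above, and 4 (FOS, FOSB, JUND and BATF3) and 2 (FOS and BATF3) lay below. FOSB in OVCAR-3 and BATF3 in both lines have no listed DMSO peak, so their place below DMSO comes from the floor alone. A floor of 1 moved FOSB to 3.81, JUND to 2.50, ATF3 to 3.78 and BATF3 to 3.34 (p = 0.167, exact permutation) and turned no difference. Fold enrichment turned none either, and moved JUN most, from 1.39 to 0.74.

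Leaving out each library in turn, the log2 differences ranged from 0.70 to 1.31 for FOS, 1.10 to 1.46 for FOSB, 1.66 to 1.89 for FOSL2, 1.21 to 1.57 for JUN, 1.23 to 1.75 for JUNB, 1.45 to 1.81 for JUND, 1.93 to 2.19 for ATF3 and 0.60 to 1.16 for BATF3. Gained members ranged from 1 to 2 in OVCAR-3, with BATF3 added without INX-315 replicate 1, and from 2 to 4 in Kuramochi, with FOSB and JUND added without DMSO replicate 2. Regions outside promoters in both DMSO replicates ranged from 4 to 7 (OVCAR-3) and 4 to 9 (Kuramochi), those in both INX-315 replicates from 8 to 14 and 14 to 18, those gained from 5 to 10 in each line, and those lost from 0 to 4 (OVCAR-3) and 0 to 1 (Kuramochi). With 1 library left in a group, presence there rests on that library, so such counts rise by construction. The gained count of 10 in OVCAR-3 came without INX-315 replicate 1, and that of 10 in Kuramochi without INX-315 replicate 2.

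The deviations of replicate 1 from replicate 2 correlated at -0.050 between treatments in OVCAR-3 and 0.0047 in Kuramochi over genes. A shift of a whole library leaves this correlation unchanged, so the correlation cannot show whether replicate numbers pair the samples. With a replicate block each member had p = 0.125 by exact permutation, the smallest that 16 arrangements allow, with differences of 1.01, 1.28, 1.78, 1.39, 1.49, 1.63, 2.06 and 0.88 in the order above. Summits rest on 4 to 72 fragments, so single heights carry wide counting intervals, and peaks too shallow to be listed cannot be told from none.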
